A study of Mus musculus with 18 samples.

Results

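Genes that mark alveolar macrophages, the resident macrophages of the airspaces, were followed through 3 interstitial populations of the inflamed mouse lung. The list held 10 genes, *Marco*, *Siglecf*, *Pparg*, *Fabp4*, *Fabp1*, *Car4*, *Ear2*, *Ear1*, *Krt79* and *Atp6v0d2*, chosen by symbol from the 21254 genes of the deposited count table. Monocyte-derived macrophages (moMs, CD45+CD11b+ cells without MHC-II and with Ly6C), transitional interstitial macrophages (tnsIMs, MHC-II+ and Ly6C+) and mature interstitial macrophages (matIMs, MHC-II+ and Ly6C-) were sorted from perfused, dissociated lungs. Each population had 3 RNA-seq libraries from WT mice and 3 from Ezr-KOm mice, so that 18 libraries in 6 groups were compared. All mice were C57BL/6, male and female, 3 to 5 months old, and were taken 24 h after nebulization of 12.5 mg of *Pseudomonas aeruginosa* LPS in 5 ml over 15 min, so that the table held no unexposed library. Ezr-KOm mice carried floxed alleles of *Ezr*, the gene of the membrane linker ezrin, and Cre expressed from *Cx3cr1*, a gene active in monocytes and macrophages. The WT mice carried the same Cre without the floxed gene, and by the study's account the deletion also reaches alveolar macrophages, in which that Cre is not seen at the time of sampling. By the study's methods alveolar macrophages were gated as CD11c+ cells and the interstitial populations were taken outside that gate, so alveolar macrophages, the cells that give the list its name, were not among the sorted groups. The labels' gates do not name CD11c.

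Alveolar macrophages take their identity from the airspace. GM-CSF and TGF-β signals raise the nuclear receptor PPARγ, which turns on genes of lipid uptake and handling, and these cells clear surfactant, inhaled particles and bacteria. The list covers several sides of that programme. *Marco* encodes a scavenger receptor for bacteria and particles, and *Siglecf* encodes a sialic acid-binding lectin used to recognise alveolar macrophages and eosinophils. *Pparg* encodes PPARγ itself, while *Fabp4* and *Fabp1* encode fatty acid-binding proteins. *Car4* encodes a membrane-anchored carbonic anhydrase, *Ear1* and *Ear2* encode eosinophil-associated ribonucleases, *Atp6v0d2* encodes a subunit of the proton pump that acidifies lysosomes, and *Krt79* encodes a keratin. Outside alveolar macrophages, *Fabp4* and *Car4* are also known from lung capillaries and *Siglecf* and the *Ear* genes from eosinophils.

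The libraries held between 16512783 and 48460995 counts, with the lowest total in tnsIMs of WT replicate 2 and the highest in tnsIMs of Ezr-KOm replicate 2. *Ezr* itself was lower in Ezr-KOm libraries without reaching 0. In moMs its level ran from 497 to 593 CPM (counts scaled to TMM-corrected library size) in WT and from 160 to 282 CPM in Ezr-KOm, a log2 difference of -1.20 (SE 0.242, adjusted p = 0.0549). The difference was -1.62 (SE 0.245, adjusted p = 0.00365) in tnsIMs and -2.29 (SE 0.25, adjusted p = 7.73e-05) in matIMs, and in each population every Ezr-KOm library lay below every WT library. Tests were made with edgeR over 15811 genes, and a gene was called at a Benjamini-Hochberg adjusted p under 0.05. Libraries numbered 2 stood apart for part of the list, with the highest *Marco* and *Krt79* of every group, and counts are given with and without them. In bulk libraries of sorted cells, fewer cells of a type and less RNA per cell cannot be told apart.

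Most of the alveolar macrophage genes were higher in matIMs than in moMs, in both genotypes, and none of them was called between genotypes. Between moMs and matIMs of WT mice 9 of 10 rose and 0 fell, where 13.4% of all tested genes rose and 11.4% fell. In Ezr-KOm mice 9 of 10 rose and 0 fell, where 12.5% of all tested genes rose and 10.7% fell. The 10 genes were chosen with earlier results of these data known, so these shares describe the list and do not test it. The gene without a call in both genotypes was *Ear2*. The median log2 fold change of the 10 genes was 2.41 in WT and 2.38 in Ezr-KOm, against 0.01 over all tested genes in either genotype. Of the 10 genes, 8 passed the filter on low counts with libraries of every population, whereas *Fabp1* and *Ear1* passed it only through tnsIM and matIM libraries and so had to be higher there. Without *Fabp1* and *Ear1*, 7 of 8 genes rose in WT and 7 of 8 in Ezr-KOm, with medians of 2.24 and 1.93. Without the libraries numbered 2, an alternative chosen after seeing the data, 7 of 10 genes were called in WT and 6 of 10 in Ezr-KOm, against 15.4% and 15.3% of all genes tested without them. *Fabp1* was among those called in WT only, and *Ear1* in neither genotype.

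**Figure D1:**
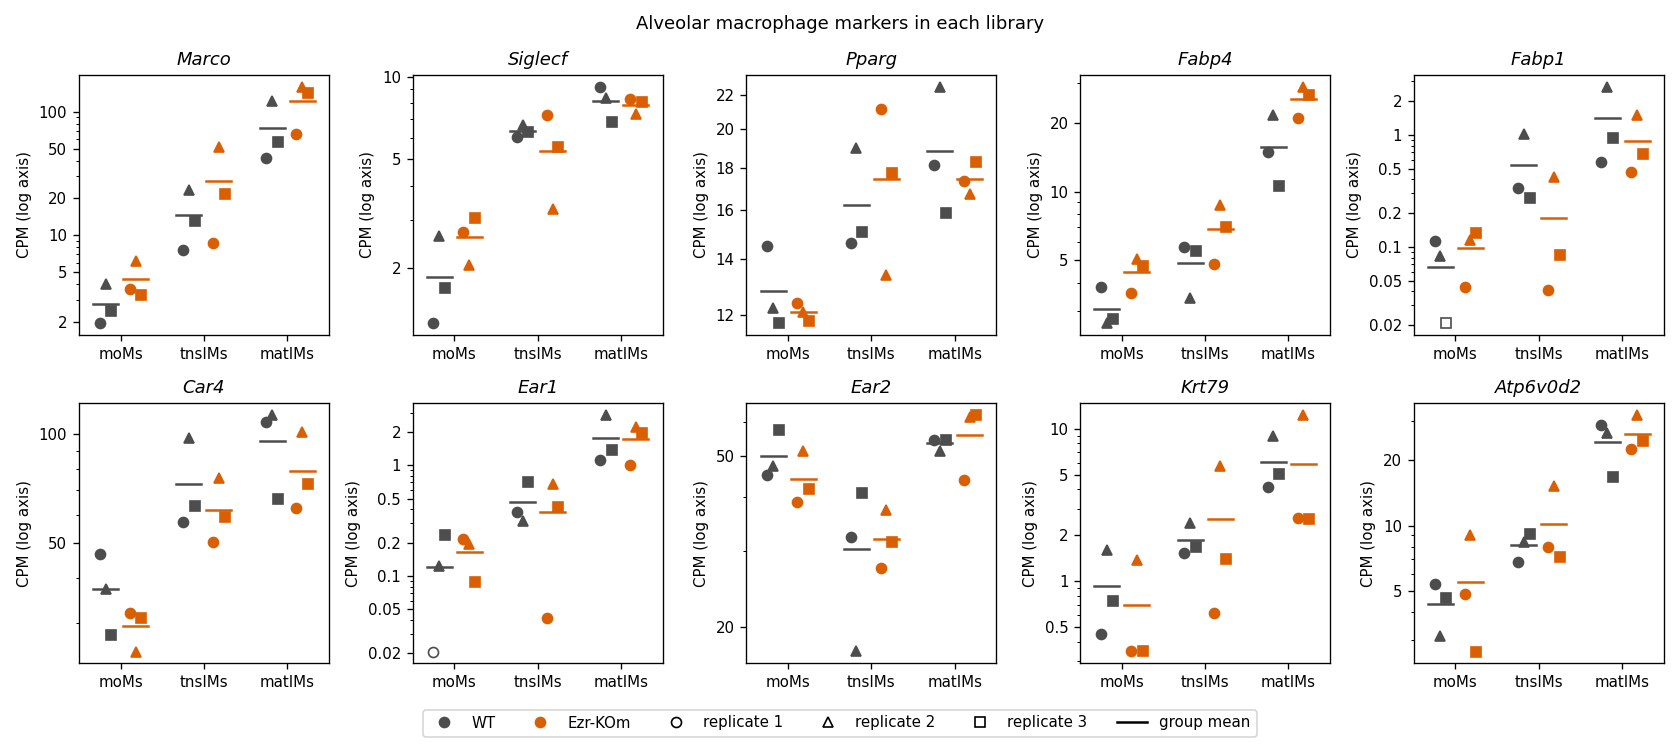
CPM of each of the 10 genes in each library (log axis), by population, with WT in grey and Ezr-KOm in orange. Circles, triangles and squares are replicates 1, 2 and 3, bars are group means of 3 libraries, and open symbols are libraries with a count of 0, drawn below the lowest value of that gene. *Marco* has the widest range, from 1.93 CPM in a moM library to 160 CPM in a matIM library.

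At the level of transcripts per length, the genes of the list differed widely. In moMs of WT mice *Ear2* stood at 68.9 and *Car4* at 24.8 RPKM (reads per kilobase of transcript, scaled to library size), and the other 8 genes lay between 0.116 RPKM (*Fabp1*) and 4.68 RPKM (*Pparg*). In matIMs of WT mice the mean was 73.8 RPKM ± 2.49 (SD, n = 3) for *Ear2*, 63.8 ± 17.1 for *Car4*, 38.2 ± 21.9 for *Marco* and 11.6 ± 4.14 for *Fabp4*. *Atp6v0d2* reached 9.45 RPKM ± 2.54 and *Pparg* 6.88 ± 1.23, while *Siglecf*, *Krt79*, *Ear1* and *Fabp1* stayed between 2.48 and 3.11 RPKM. *Marco* was thus below *Pparg* per length in moMs (1.45 RPKM) and above it in matIMs, a description with no test between genes.

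Among the receptors, *Marco* (chr1:120402267-120432753 on GRCm39, minus strand) changed most. In WT mice, replicates 1, 2 and 3 gave 1.93, 4.02 and 2.44 CPM in moMs, 7.59, 23.3 and 13.0 CPM in tnsIMs, and 42.3, 122 and 56.8 CPM in matIMs. In Ezr-KOm mice they gave 3.70, 6.17 and 3.30 CPM in moMs, 8.68, 51.4 and 21.6 CPM in tnsIMs, and 66.4, 160 and 142 CPM in matIMs. Within each genotype the 3 populations did not overlap, and replicate 2 was the highest library of every group. Both steps were called: the log2 fold change from moMs to tnsIMs was 2.36 (SE 0.595, adjusted p = 0.00801) in WT and 2.64 (SE 0.574, adjusted p = 0.00385) in Ezr-KOm. The step from tnsIMs to matIMs came to 2.34 (SE 0.551, adjusted p = 0.00488) in WT and 2.16 (SE 0.539, adjusted p = 0.00743) in Ezr-KOm. Over both steps *Marco* rose 26.0-fold in WT (adjusted p = 1.79e-05) and 27.8-fold in Ezr-KOm (adjusted p = 1.23e-05).

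*Siglecf* (chr7:43000765-43008955, plus strand) rose at the first step. Its WT replicates gave 1.25, 2.61 and 1.69 CPM in moMs, 6.05, 6.66 and 6.30 CPM in tnsIMs, and 9.22, 8.37 and 6.82 CPM in matIMs. Its Ezr-KOm replicates gave 2.7, 2.04 and 3.04 CPM, then 7.23, 3.29 and 5.55 CPM, then 8.31, 7.29 and 8.09 CPM. The moM libraries were below all others in both genotypes, and the tnsIM and matIM libraries lay close together without overlap. From moMs to tnsIMs the log2 fold change was 1.76 (SE 0.295, adjusted p = 0.000315) in WT and 1.04 (SE 0.286, adjusted p = 0.0187) in Ezr-KOm. The Ezr-KOm call was lost without moM replicate 2 (0.90, adjusted p = 0.0906) or without tnsIM replicate 1 (0.74, adjusted p = 0.126) of that genotype. The second step was not called, at 0.36 (adjusted p = 0.456) in WT and 0.57 (adjusted p = 0.184) in Ezr-KOm. From moMs to matIMs *Siglecf* rose 4.35-fold in WT (adjusted p = 2.86e-05) and 3.05-fold in Ezr-KOm (adjusted p = 0.00037).

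*Pparg* (chr6:115337912-115467360, plus strand), the regulator on the list, was present in every library, between 11.7 and 22.5 CPM. It gave 14.5, 12.2 and 11.7 CPM in moMs, 14.6, 19.0 and 15.1 CPM in tnsIMs and 18.1, 22.5 and 15.9 CPM in matIMs of WT mice. The Ezr-KOm libraries ran from 11.8 to 12.4 CPM in moMs, from 13.4 to 21.2 CPM in tnsIMs and from 16.7 to 18.3 CPM in matIMs. All matIM libraries of a genotype were above all its moM libraries, by 1.47-fold in WT (log2 0.56, SE 0.181, adjusted p = 0.0298) and 1.44-fold in Ezr-KOm (0.53, SE 0.18, adjusted p = 0.0403). Neither step was called alone in WT, at 0.34 (adjusted p = 0.195) and 0.22 (adjusted p = 0.5). Leaving out any 1 of 8 libraries ended the WT call (0.38 to 0.55), and any 1 of 14 libraries ended the Ezr-KOm call (0.48 to 0.56).

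*Fabp4* (chr3:10269148-10273636, minus strand), which shuttles fatty acids inside macrophages, rose at the second step. In WT mice it gave 3.81, 2.65 and 2.75 CPM in moMs, 5.71, 3.42 and 5.48 CPM in tnsIMs, and 14.9, 21.7 and 10.6 CPM in matIMs. In Ezr-KOm mice it gave 3.61, 5.09 and 4.71 CPM, then 4.82, 8.77 and 7.03 CPM, then 21.1, 28.9 and 26.7 CPM. The moM and tnsIM libraries overlapped in each genotype, and every matIM library was above them. From tnsIMs to matIMs the log2 fold change was 1.68 (SE 0.283, adjusted p = 0.000273) in WT and 1.89 (SE 0.278, adjusted p = 7.60e-05) in Ezr-KOm. From moMs to matIMs *Fabp4* rose 5.14-fold (adjusted p = 7.59e-06) and 5.71-fold (adjusted p = 3.03e-06). The first step, 0.68 (adjusted p = 0.106) in WT and 0.63 (adjusted p = 0.158) in Ezr-KOm, was not called.

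*Atp6v0d2* (chr4:19876841-19922605, minus strand), the lysosomal proton pump subunit, followed the same order. WT replicates gave 5.41, 3.11 and 4.64 CPM in moMs, 6.84, 8.43 and 9.16 CPM in tnsIMs, and 28.9, 26.6 and 16.8 CPM in matIMs. Ezr-KOm replicates gave 4.87, 9.02 and 2.64 CPM, then 7.93, 15.2 and 7.20 CPM, then 22.4, 32.2 and 24.5 CPM. Again each matIM library exceeded every moM and tnsIM library. The second step was 1.57 (SE 0.36, adjusted p = 0.00415) on the log2 scale in WT and 1.37 (SE 0.354, adjusted p = 0.00941) in Ezr-KOm, where leaving out tnsIM replicate 3 ended the call (1.13, adjusted p = 0.0503). *Atp6v0d2* rose 5.52-fold from moMs to matIMs in WT (adjusted p = 7.67e-05) and 4.76-fold in Ezr-KOm (adjusted p = 0.000162).

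The 250 bases before the start site of *Atp6v0d2* are shown because the gene rose from tnsIMs to matIMs in both genotypes and its window held 3 of the short motifs searched. The sequence is from GRCm39, with the start site of Gencode M39, and is written 5′ to 3′ on the strand of the gene. Capitals mark the nuclear receptor element AGGTCA, the AP-1 motif TGANTCA and the TATA box TATAAA, searched on both strands.
*Atp6v0d2*, chr4:19922615-19922864, minus strand: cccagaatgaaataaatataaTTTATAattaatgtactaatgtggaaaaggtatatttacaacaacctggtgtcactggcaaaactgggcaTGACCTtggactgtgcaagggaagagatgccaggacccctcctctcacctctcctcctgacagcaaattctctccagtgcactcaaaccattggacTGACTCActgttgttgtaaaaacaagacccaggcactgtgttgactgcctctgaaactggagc
The AGGTCA element began 159 bases, the AP-1 motif 63 bases and the TATA box 229 bases before the start site, the AGGTCA element and the TATA box as their reverse complements. The receptor element AGGTCA was in the windows of 2 of 9 genes searched (*Fabp1* and *Atp6v0d2*) and of 11.6% of 13210 promoters of tested protein-coding genes. TGANTCA was in 1 of 9 (*Atp6v0d2*) and 4.78%, and the C/EBP motif TTGCNNAA was in 3 of 9 (*Fabp1*, *Ear2* and *Ear1*) and 8.21%. The direct repeat of AGGTCA with 1 base between the copies, the element bound by PPARγ with its partner, was in 0 of 9 windows and 0.0227% of promoters, and the PU.1 core AGGAAGT was in 0 of 9 and 7.21%. CATGTG was in 1 of 9 (*Siglecf*) and 7.86%, CACGTG in 0 of 9 and 7.52%, and TATAAA in 1 of 9 and 7.46%. A match describes letters only and is not a site of binding.

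*Car4* (chr11:84848612-84856870, plus strand) rose at the first step. In WT mice it gave 46.6, 37.2 and 27.9 CPM in moMs, 57.2, 98.0 and 63.5 CPM in tnsIMs, and 108, 113 and 66.4 CPM in matIMs. In Ezr-KOm mice it gave 32.1, 25.1 and 31.1 CPM, then 50.5, 75.9 and 58.9 CPM, then 62.7, 102 and 72.8 CPM. The moM libraries were lowest without overlap, while tnsIM and matIM libraries overlapped in both genotypes. The first step was 0.97 (SE 0.255, adjusted p = 0.0103) on the log2 scale in WT and 1.07 (SE 0.255, adjusted p = 0.00719) in Ezr-KOm. The second, 0.40 (adjusted p = 0.343) and 0.36 (adjusted p = 0.407), was not called. In WT the first step was no longer called without moM replicate 3 (0.80, adjusted p = 0.0609) or tnsIM replicate 2 (0.72, adjusted p = 0.0643). From moMs to matIMs *Car4* rose 2.58-fold in WT (adjusted p = 0.000566) and 2.69-fold in Ezr-KOm (adjusted p = 0.000402).

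*Ear2* (chr14:44340111-44340991, plus strand) had a different pattern, lowest in tnsIMs. It gave 45.0, 47.4 and 57.3 CPM in moMs, 32.3, 17.5 and 41.0 CPM in tnsIMs, and 54.5, 51.3 and 54.4 CPM in matIMs of WT mice. Ezr-KOm replicates gave 39.1, 51.3 and 41.9 CPM, then 27.4, 37.3 and 31.4 CPM, then 43.9, 61.4 and 62.2 CPM. In both genotypes every tnsIM library was below every moM and matIM library. *Ear2* fell from moMs to tnsIMs in WT (log2 -0.72, SE 0.228, adjusted p = 0.0311), a call lost without moM replicate 3 (-0.61, adjusted p = 0.108) or tnsIM replicate 2 (-0.43, adjusted p = 0.125). In Ezr-KOm the difference was -0.46 (adjusted p = 0.207). *Ear2* then rose from tnsIMs to matIMs, by 0.81 (SE 0.228, adjusted p = 0.016) in WT and 0.80 (SE 0.227, adjusted p = 0.0178) in Ezr-KOm. The WT rise was not called without tnsIM replicate 2 (0.52, adjusted p = 0.0615), and the Ezr-KOm rise was not called without any 1 of tnsIM replicates 1 and 3 and matIM replicates 2 and 3 (0.68 to 0.73). Between moMs and matIMs it differed by 0.10 (SE 0.226, adjusted p = 0.807) in WT and 0.34 (SE 0.226, adjusted p = 0.325) in Ezr-KOm.

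*Ear1* (chr14:44056222-44112974, minus strand), the neighbour and near copy of *Ear2*, was read at very low counts. WT replicates had 0, 3 and 6 counts in moMs, 9, 5 and 18 in tnsIMs, and 25, 67 and 37 in matIMs. Ezr-KOm replicates had 5, 5 and 2 counts, then 1, 34 and 10, then 28, 65 and 47. Every matIM library was above all moM libraries of its genotype, from 1.00 to 2.86 CPM against at most 0.236 CPM. The pooled ratio of matIMs to moMs was 13.2 in WT (129 against 9 counts, 95% counting interval 6.75 to 29.5) and 10.3 in Ezr-KOm (140 against 12 counts, 5.73 to 20.5). These intervals cover counting error only. The edgeR test called this rise in both genotypes (adjusted p = 0.00156 and 0.00281). *Ear1* passed the filter in 0 moM libraries, so the filter set the direction of the rise. The step from tnsIMs to matIMs was called in Ezr-KOm (2.10, SE 0.667, adjusted p = 0.0338) and not in WT (1.90, adjusted p = 0.0604), and the Ezr-KOm call was lost without any 1 of tnsIM replicates 1 and 3 and matIM replicates 2 and 3.

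The 250 bases before the start sites of *Ear1* and *Ear2* are shown because the genes are near copies. These bases lie before the transcripts compared below, and only the likeness of the transcripts bears on how far reads can be assigned. Both are from GRCm39, 5′ to 3′ on the strand of the gene, and capitals mark the bases that differ in the alignment.
*Ear1*, chr14:44057097-44057346, minus strand: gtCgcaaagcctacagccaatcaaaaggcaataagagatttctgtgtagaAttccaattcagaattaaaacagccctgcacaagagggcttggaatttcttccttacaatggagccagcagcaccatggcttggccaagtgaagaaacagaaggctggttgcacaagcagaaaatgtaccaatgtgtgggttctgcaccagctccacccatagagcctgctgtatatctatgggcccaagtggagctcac
*Ear2*, chr14:44339861-44340110, plus strand: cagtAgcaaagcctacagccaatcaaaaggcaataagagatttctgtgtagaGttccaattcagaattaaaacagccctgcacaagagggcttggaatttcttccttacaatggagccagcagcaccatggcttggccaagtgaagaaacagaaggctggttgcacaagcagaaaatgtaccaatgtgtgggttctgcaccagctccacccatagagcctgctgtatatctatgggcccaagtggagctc
Of 248 aligned bases 246 were identical and 2 differed (99.2% identity). The transcripts of *Ear1* and *Ear2* were 96.4% identical over 713 bases, and each had 3 genes at 90% identity or more over 80% of its length, the other of the pair with *Gm63584* and *Ear10*. The other 8 genes of the list had 0 such copies. *Ear1* also overlaps pseudogenes and noncoding genes of the same cluster, so the split of reads between *Ear1* and *Ear2* is uncertain. Reads from overlapping genes on the opposite strand cannot be told apart either, for *Pparg*, *Fabp4*, *Ear2*, *Ear1* and *Atp6v0d2*, since the strand of counting was not given in the sources used here.

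*Fabp1* (chr6:71176811-71182007, plus strand), the fatty acid-binding protein best known from liver, was the rarest gene of the list. WT replicates had 2, 2 and 0 counts in moMs, 8, 16 and 7 in tnsIMs, and 13, 63 and 25 in matIMs. Ezr-KOm replicates had 1, 3 and 3 counts, then 1, 21 and 2, then 13, 44 and 16. Every moM library was at or under 3 counts, the floor used here, and all matIM libraries were above all moM libraries. The pooled ratio of matIMs to moMs was 23.3 in WT (101 against 4 counts, counting interval 8.81 to 87.1) and 9.24 in Ezr-KOm (73 against 7 counts, 4.27 to 23.8). The rise was called in WT (adjusted p = 0.00243) and in Ezr-KOm (adjusted p = 0.0171), where leaving out moM replicate 1 or 2 or matIM replicate 2 ended the call. As *Fabp1* passed the filter in 0 moM libraries, the filter set the direction of this rise. From moMs to tnsIMs the ratio was 7.97 in WT (2.82 to 31.1, adjusted p = 0.046) and 2.51 in Ezr-KOm (1.05 to 6.90, adjusted p = 0.546). The WT call of that step was lost without any 1 of 8 libraries.

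*Krt79* (chr15:101837767-101848759, minus strand) rose from moMs to matIMs with a wide spread between replicates. WT replicates gave 0.455, 1.62 and 0.748 CPM in moMs, 1.54, 2.41 and 1.68 CPM in tnsIMs, and 4.12, 9.01 and 5.03 CPM in matIMs. Ezr-KOm replicates gave 0.348, 1.39 and 0.352 CPM, then 0.623, 5.68 and 1.40 CPM, then 2.62, 12.3 and 2.56 CPM. The matIM libraries were above the moM libraries of the same genotype, and replicate 2 was highest in all 6 groups. The rise was 6.31-fold in WT (log2 2.66, SE 0.774, adjusted p = 0.0163) and 8.22-fold in Ezr-KOm (3.04, SE 0.792, adjusted p = 0.00816). The WT call was lost without moM replicate 1, moM replicate 3 or matIM replicate 2 (2.22 to 2.47), and the Ezr-KOm call without matIM replicate 2 (1.87, adjusted p = 0.0944).

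**Figure D2:**
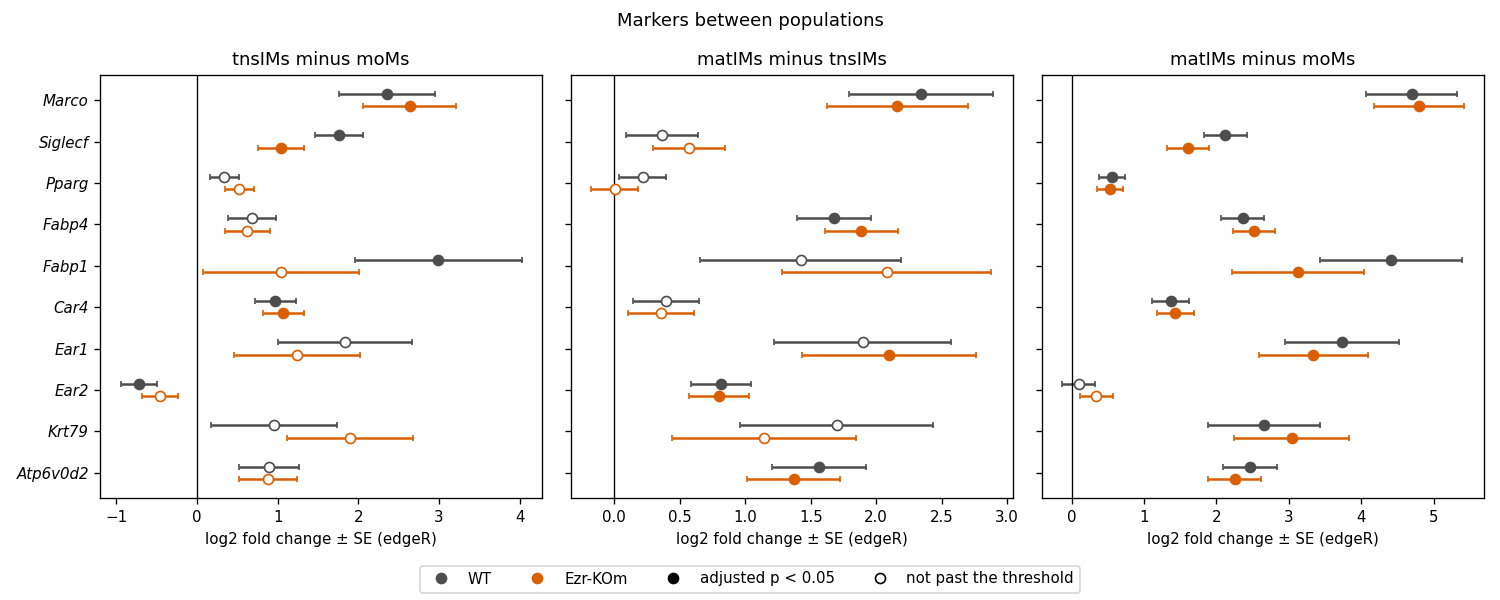
Log2 fold changes with SE of the 10 genes between populations, in WT and Ezr-KOm, with filled symbols at an adjusted p under 0.05 in edgeR. *Marco* rises at both steps, *Siglecf* and *Car4* at the first, *Fabp4* and *Atp6v0d2* at the second, and *Ear2* falls in WT at the first step and rises at the second.

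Taken step by step, from moMs to tnsIMs of WT mice 4 of 10 genes rose (*Marco*, *Siglecf*, *Fabp1* and *Car4*; 13.0% of all tested genes rose) and 1 fell (*Ear2*, background 8.61%). In Ezr-KOm mice 3 of 10 rose (*Marco*, *Siglecf* and *Car4*, background 9.23%) and 0 fell (5.04%). From tnsIMs to matIMs 4 of 10 rose in WT (*Marco*, *Fabp4*, *Ear2* and *Atp6v0d2*, background 8.32%) and 5 of 10 in Ezr-KOm (the same genes and *Ear1*, background 8.37%), and 0 fell in either (10.2% and 9.85%). Without *Fabp1* and *Ear1*, whose rises the filter set, 3 of 8 genes rose and 1 fell at the first step in WT, 3 of 8 rose in Ezr-KOm, and 4 of 8 rose at the second step in either genotype. Same-numbered libraries of adjacent populations deviated together across all genes, and more genes were called at these steps in a fit that blocked on the replicate number within each genotype. The block gave 8 calls from moMs to tnsIMs in WT (30.0% of all tested genes in the same fit, either direction), adding *Fabp4* (0.70, adjusted p = 0.0491), *Krt79* (1.09, adjusted p = 0.0135) and *Atp6v0d2* (0.91, adjusted p = 0.0167). It gave 6 calls in Ezr-KOm (21.5%), adding *Pparg* (0.51, adjusted p = 0.033), *Krt79* (1.75, adjusted p = 0.000946) and *Atp6v0d2* (0.92, adjusted p = 0.0183). From tnsIMs to matIMs the block gave 6 calls in WT (23.9%), adding *Ear1* (1.85, adjusted p = 0.0339) and *Krt79* (1.63, adjusted p = 0.000273), and 7 in Ezr-KOm (24.4%), adding *Fabp1* (2.33, adjusted p = 0.00741) and *Krt79* (1.28, adjusted p = 0.00218).

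By the study's own criterion, which asks for p under 0.05 before adjustment and a log2 fold change beyond 0.75 in size, 6 genes rose from moMs to tnsIMs, 6 from tnsIMs to matIMs and 8 from moMs to matIMs in WT, where 14.4%, 8.61% and 13.1% of all tested genes did. In Ezr-KOm mice the counts were 5, 6 and 8, against 12.6%, 8.91% and 13.2%. *Pparg*, at 0.56 and 0.53, was under this fold limit. Libraries of matIMs lay above those of moMs without overlap for 9 of 10 genes in WT (22.2% of all tested genes) and 9 of 10 in Ezr-KOm (20.7%). The counts of both kinds from moMs to matIMs include *Fabp1* and *Ear1*, whose rises the filter set. Some counts of single steps include them too.

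The question whether loss of ezrin altered these genes had no called answer in any population. In moMs, tnsIMs and matIMs 0 of 10 genes were called between Ezr-KOm and WT by edgeR, where 0.171%, 0.164% and 0.152% of all tested genes were called in either direction. DESeq2 called 0 of 10, against 0.355%, 0.348% and 0.329%. At an unadjusted p under 0.05 the counts were 0, 0 and 1 of 10, against 3.74%, 3.24% and 3.84% of all tested genes. The 1 gene was *Fabp4* in matIMs, at 15.7 CPM ± 5.63 (SD, n = 3) in WT and 25.6 CPM ± 4.06 in Ezr-KOm, a log2 difference of 0.70 (SE 0.269, adjusted p = 0.99988). Its lowest Ezr-KOm library (21.1 CPM) was below the highest WT library (21.7 CPM), and the difference was 0.55 (SE 0.293) in moMs and 0.49 (SE 0.281) in tnsIMs. *Marco* differed by 0.64 (SE 0.605), 0.92 (SE 0.534) and 0.74 (SE 0.518) in moMs, tnsIMs and matIMs, with overlapping libraries in each. Between libraries of the same number *Marco* was higher in Ezr-KOm in 9 of 9 pairs, over 3 numbers that recur in each population, and *Fabp4* in 3 of 3 pairs in matIMs. For the other 8 genes between 2 and 5 of 9 pairs were higher in Ezr-KOm. Without 1 library the *Marco* difference in tnsIMs ran from 0.06 to 1.41. *Car4* was at -0.34 (SE 0.254), -0.24 (SE 0.251) and -0.28 (SE 0.251). *Fabp1* had the widest range, from -1.31 (SE 0.828) in tnsIMs to 0.64 (SE 1.21) in moMs, and errors of this size leave a 2-fold difference undetectable. In the fit blocked on replicate number 0 of 10 genes were called, against 0.266%, 0.215% and 0.24% of all tested genes. The smallest adjusted p there was 0.34469, for *Marco* in matIMs (0.81), and *Marco* was at 0.70 (adjusted p = 0.81078) in moMs and 0.77 (adjusted p = 0.52699) in tnsIMs.

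**Figure D3:**
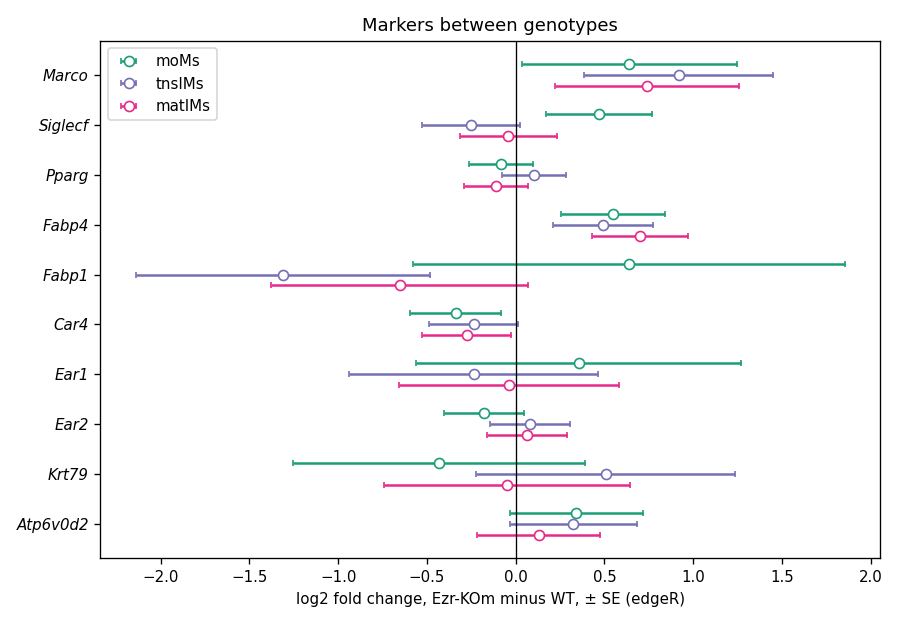
Log2 differences with SE between Ezr-KOm and WT for the 10 genes in moMs, tnsIMs and matIMs, on a shared axis with 0 marked. *Marco* and *Fabp4* lie above 0 and *Car4* below 0 in all 3 populations, and 0 of the 30 differences are called.

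The rises between populations were also compared between genotypes. The interaction terms gave 0 calls and 0 unadjusted p under 0.05 among the 10 genes at each step, and 0 calls by DESeq2. Over all tested genes 0.0% were called and 1.47%, 1.16% and 1.70% had an unadjusted p under 0.05 at the first step, at the second and over both. The smallest unadjusted p of the 10 genes was 0.0928, for *Siglecf* from moMs to tnsIMs (log2 -0.72, Ezr-KOm minus WT). For the 6 group means, the order of *Marco* was moMs, tnsIMs, matIMs with WT below Ezr-KOm in each population, and only Ezr-KOm moMs and WT tnsIMs were neighbours without overlap.

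Libraries numbered 2 stood apart for part of the list. *Marco* and *Krt79* were highest in replicate 2 in 6 of 6 groups, which held for 98 of 15811 tested genes (0.62%), and *Fabp1*, *Fabp4* and *Car4* in 4 of 6. On the log2 CPM scale, replicate 2 deviated from its group mean by 1.04 on average for *Krt79*, 0.79 for *Fabp1*, 0.76 for *Marco* and 0.39 for *Ear1*, and by -0.06 for *Siglecf*. The 18 libraries are not independent points, since those with the same number deviated together across all genes. Deviations from the group means correlated at r = 0.83 for *Marco* and *Krt79*, 0.78 for *Marco* and *Fabp1*, and 0.72 for *Marco* and *Ear1*. For *Siglecf* and *Atp6v0d2* r was -0.63. These are descriptions with no test. Between moMs and matIMs without these libraries, *Pparg* (0.38, adjusted p = 0.219) and *Ear1* (3.19, adjusted p = 0.0632) lost their call in WT, and *Pparg* (0.56, adjusted p = 0.0728), *Fabp1* (2.62, adjusted p = 0.0821) and *Ear1* (3.23, adjusted p = 0.0543) in Ezr-KOm. From moMs to tnsIMs 2 genes were left in either genotype (10.3% of all tested genes in WT and 5.32% in Ezr-KOm), with *Fabp1* (2.52, adjusted p = 0.171), *Car4* (0.70, adjusted p = 0.123) and *Ear2* (-0.48, adjusted p = 0.175) lost in WT and *Car4* (0.79, adjusted p = 0.117) in Ezr-KOm.

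**Figure D4:**
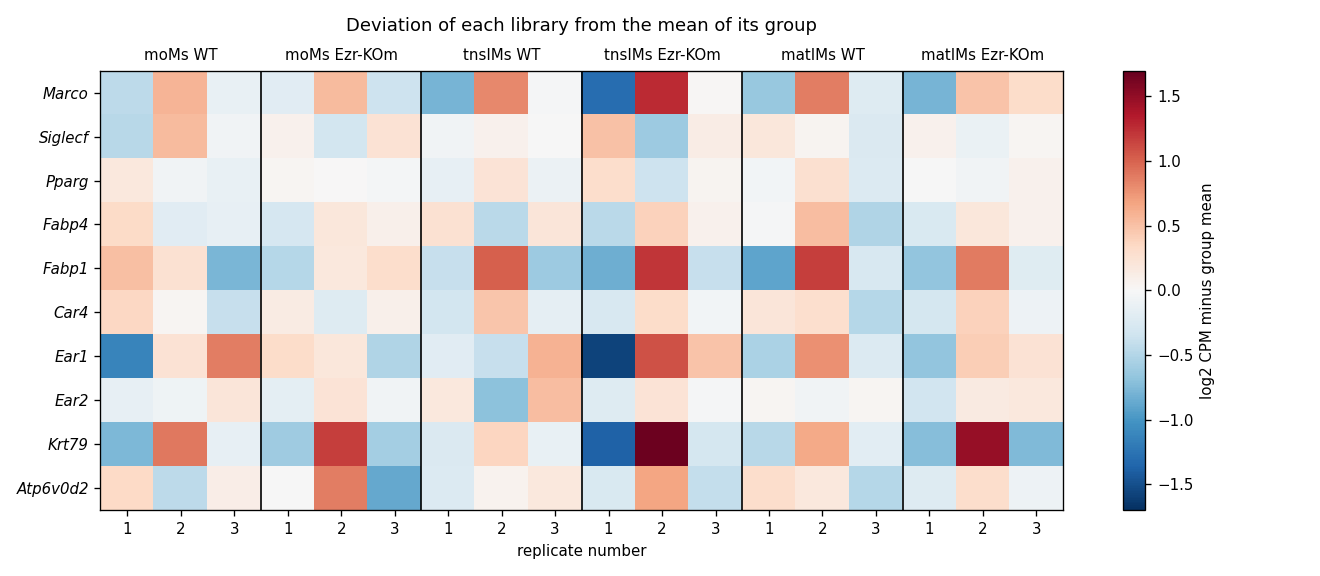
Deviation of each gene from its group mean (log2 CPM) in each library, with libraries as columns labelled by replicate number within each group and genes as rows. Replicate 2 is above its group mean in all 6 groups for *Marco* and *Krt79*, and the mean deviation of replicate 2 is 1.04 for *Krt79*.

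Markers of other cells moved with the same populations. From moMs to matIMs of WT mice 13.4% of all tested genes rose and 11.4% fell. The summed level of 6 dendritic cell markers ran from 76.5 to 117 CPM in moMs, 151 to 368 CPM in tnsIMs and 2460 to 3485 CPM in matIMs of WT mice, and 5 of 6 rose from moMs to matIMs. *Ccr7*, a receptor of migrating dendritic cells, went from 13.4 to 107 to 1814 CPM, and *Zbtb46*, a factor of conventional dendritic cells, rose by 5.09 on the log2 scale. The summed level of 4 B cell markers ran from 8.76 to 13.2, 38.8 to 58.8 and 146 to 218 CPM in the same groups, and 4 of 4 rose, of which *Cd79a* and *Ms4a1* passed the filter in 0 moM libraries of WT mice. Ezr-KOm ranges were 84.9 to 98.2, 212 to 313 and 3094 to 3308 CPM for dendritic cell markers and 8.56 to 12.2, 35.1 to 98.7 and 83.4 to 218 CPM for B cell markers. The macrophage identity list (*Lyz2*, *Csf1r*, *Ptprc*, *Adgre1*, *Fcgr1* and *Mertk*) was detected in all groups. Its sum ran from 25330 to 31747 CPM in moMs and from 9054 to 9799 CPM in matIMs of WT mice, and 4 of 6 fell. The part of these cells in the rises of the alveolar macrophage genes was not tested. For scale, the 10 genes together made up 109 to 119 CPM in moMs, 133 to 180 CPM in tnsIMs and 235 to 380 CPM in matIMs of WT mice.

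Cells known to express single genes of the list were checked in the same way. The sort used a CD45+ gate, and the methods set granulocytes aside by CD24, MHC-II, Ly6G and SiglecF before the 3 populations. The summed level of 8 endothelial markers ran from 123 to 185 CPM in moMs, 294 to 482 CPM in tnsIMs and 78.8 to 104 CPM in matIMs of WT mice. Of these, 7 rose and 1 fell at the first step, where 13.0% of all tested genes rose and 8.61% fell. At the second step 8 of 8 fell, against 10.2% of all tested genes. *Car4* rose at the first step and was not called at the second, where *Fabp4* rose. The 8 epithelial and surfactant markers stood at 116 to 153, 2536 to 4153 and 544 to 585 CPM, and 6 of 8 rose at the first step. Eosinophil markers were low, at 0.797 to 1.70 CPM in moMs, 4.11 to 16.9 CPM in tnsIMs and 3.39 to 19.9 CPM in matIMs of WT mice. The defining granule gene *Prg2* passed the filter in 0 libraries and was at 0 in moMs of WT mice, and *Epx* was not among the genes of the count table. *Siglecf* and the eosinophil sum were both higher in tnsIMs than in moMs. Fibroblast markers ran from 21.5 to 35.4, 79.2 to 99.4 and 12.4 to 25.7 CPM, neutrophil markers from 777 to 873, 435 to 623 and 254 to 315 CPM, and T and NK cell markers from 20.5 to 31.6, 21.1 to 29 and 23.3 to 27.4 CPM in the 3 populations of WT mice. Of the 5 T and NK cell markers 0 were called from moMs to matIMs. The part of these cells in the results was not tested.

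Further markers of alveolar macrophages did not move as one group. Of 16 listed genes 15 were tested, and from moMs to matIMs 6 rose and 2 fell in WT, and 5 rose and 2 fell in Ezr-KOm. The WT rises include *Cidec*, which passed the filter on low counts in 0 moM libraries, so the filter set its direction. Over all tested genes 13.4% rose and 11.4% fell in WT, and 12.5% rose and 10.7% fell in Ezr-KOm. *Plet1*, a surface glycoprotein, went from 2.40 to 7.85 to 64.4 CPM in moMs, tnsIMs and matIMs of WT mice (moMs to matIMs log2 4.77, adjusted p = 7.1e-09). *Itgax*, which encodes CD11c, the protein used in the methods to gate alveolar macrophages, went from 269 to 555 to 657 CPM (1.29), and *Ctsk*, the protease cathepsin K, from 6.75 to 10.5 to 29.6 CPM (2.14, adjusted p = 0.0014). *Chil3*, a chitinase-like protein abundant in alveolar macrophages, fell from 5902 to 1216 to 338 CPM (-4.13, adjusted p = 2.6e-08), and *Il18*, the cytokine, fell from 28.8 to 17.4 to 12.3 CPM (-1.23, adjusted p = 0.0016). *Lpl*, *Plin2*, *Abcg1*, *Lsr*, *Slc7a2*, *Serpinb1a* and *Bhlhe41*, the last a factor of alveolar macrophage identity, were not called in WT.

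**Figure D5:**
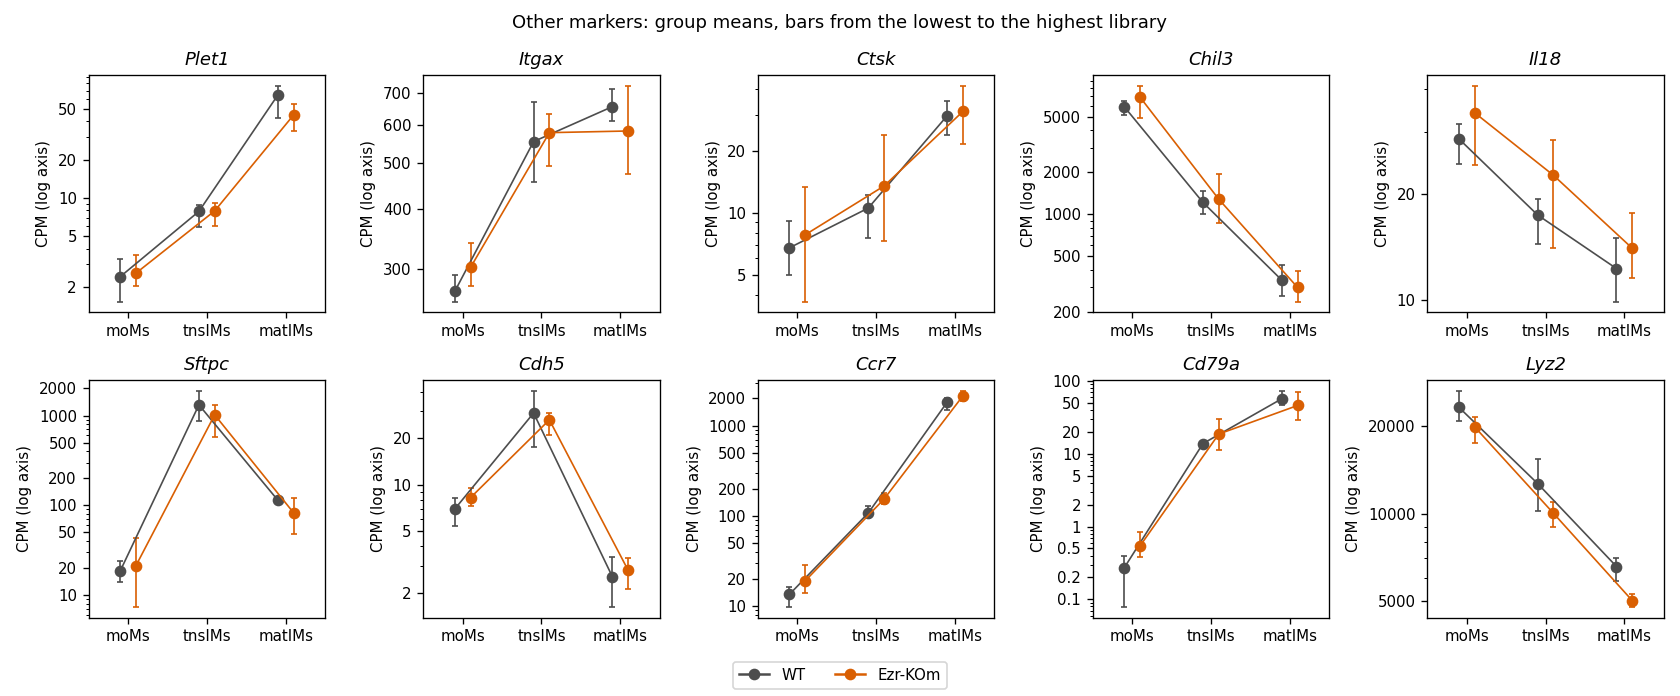
Group means of CPM with bars from the lowest to the highest library (log axis) for *Plet1*, *Itgax*, *Ctsk*, *Chil3*, *Il18*, *Sftpc*, *Cdh5*, *Ccr7*, *Cd79a* and *Lyz2* in the 6 groups. *Plet1* rises to 64.4 CPM in WT matIMs while *Chil3* falls to 338 CPM, and *Ccr7*, a dendritic cell marker, reaches 1814 CPM.

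Pathways and families of the 10 genes were read from moMs to matIMs of WT mice, where 13.4% of all tested genes rose and 11.4% fell. Of 14 genes of the GM-CSF, TGF-β and PPARγ axis 2 rose and 2 fell: *Stat5a*, which transmits GM-CSF signals, rose from 33.3 to 99.7 CPM (1.58, adjusted p = 4.5e-06) and *Bhlhe40* by 1.08, while *Cebpb* fell by 1.10 and *Rxra*, the partner of PPARγ, fell by 0.74. Of 11 tested PPARγ targets 3 rose and 0 fell, *Fabp5* (1.79, adjusted p = 4.5e-06), *Cidec*, a lipid droplet protein (3.39, adjusted p = 0.0019), which passed the filter in 0 moM libraries, and *Cd36*, a fatty acid transporter (0.69, adjusted p = 0.023). Of 10 scavenger receptor genes 3 rose and 6 fell, and *Msr1*, the class A receptor related to *Marco*, fell from 892 to 271 CPM (-1.72, adjusted p = 8.5e-08). Of 6 Siglec genes *Siglecg* (2.84) and *Cd22* (3.35), both known from B cells, rose and *Siglec1* (-1.17) and *Cd33* (-0.97) fell. Of 3 other fatty acid-binding protein genes *Fabp5* rose, *Fabp7* fell (-2.66, adjusted p = 0.0032) and *Fabp3* was not called. Of 2 other tested ribonuclease genes of the *Ear* family *Rnase2a* rose (adjusted p = 0.015) and *Rnase2b* fell (adjusted p = 0.00022), both with means under 1 CPM in each WT group. *Rnase2a* passed the filter in 0 moM libraries and *Rnase2b* in 0 matIM libraries, so the filter set their directions. Carbonic anhydrases beside *Car4* gave 3 of 4 higher, with *Car2* from 9.58 to 58.8 CPM (2.62). None of 5 subunits of the proton pump's membrane sector beside *Atp6v0d2* was called, and *Atp6v0d1*, the widely expressed counterpart, stood at 232, 220 and 198 CPM in moMs, tnsIMs and matIMs.

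Among these relatives, *Atp6v0c*, the proton-conducting ring subunit of the same pump, was called between genotypes. It was lower in Ezr-KOm than in WT by -1.39 in moMs (399 CPM in WT and 153 CPM in Ezr-KOm, adjusted p = 0.00194), -1.55 in tnsIMs (adjusted p = 0.000666) and -1.49 in matIMs (adjusted p = 0.00115) on the log2 scale. *Atp6v0d2* in the same comparisons was at 0.34, 0.33 and 0.13 and was not called. The cause of the *Atp6v0c* difference, whether loss of ezrin or another difference between the mouse lines, was not tested.

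The genes closest to each member in pattern over the 18 libraries were named by the highest Pearson r of log2 CPM, as a description without a test. The points share replicate numbers and populations, and a gene that rises through the 3 populations will score high. *Marco* was closest to *Cxcl13* (0.97), a B cell chemokine, and *Atp6v0d2* to *Ctsk* (0.97), *Spsb1* and *Actn1*. *Siglecf* was closest to *Alpk2* (0.94) and *H2-Aa* (0.94), the latter a gene of the MHC-II molecules by which the populations were sorted. *Fabp4* was closest to *Mucl1* (0.96), *Car4* to *Mfge8* (0.94), *Ear1* to *Sh3bp4* (0.94), *Pparg* to *Eif1ax* (0.90) and *Ear2* to *Tbl1x* (0.91). Immunoglobulin gene segments were among the 3 closest genes of *Marco*, *Siglecf*, *Pparg*, *Fabp1*, *Car4* and *Krt79*, beside the rise of the B cell markers given above. The choice of closest genes depended on the measure. By Spearman's rho, of the genes named here only *Ctsk*, *Spsb1*, *H2-Aa*, *Mfge8* and *Eif1ax* were also among the 3 closest. Of the immunoglobulin segments only *Ighj2*, for *Car4*, stayed among the 3 closest.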

How the data were processed

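RNA was taken from sorted lung populations, amplified with a full-length cDNA kit and sequenced as paired reads. The authors aligned reads with STAR 2.7.9a to GRCm39 and deposited whole-number read counts per gene, not normalized. The strand setting of the counting was not given in the sources used here. Columns were matched to samples by name, and 0 count columns lay outside the labels. All 21254 genes had a count in at least 3 libraries.

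In R 4.3.3, edgeR 4.0.16 filtered genes with filterByExpr (smallest count 10), applied TMM and fitted 1 quasi-likelihood model of 6 groups to 18 libraries, with 12 residual degrees of freedom. Population, genotype and interaction contrasts were adjusted by Benjamini-Hochberg over 15811 genes. CPM used TMM-scaled library sizes. RPKM used the length of the canonical transcript in a later Gencode annotation of GRCm39, and log2 CPM a prior count of 2. Nothing in the labels ties a library to a named mouse beyond its replicate number, so p-values measure the spread between these libraries.

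The start regions of 9 of the 10 genes were searched for motifs, and 1 further result is not reported here. The 10 genes and the other gene lists were chosen with earlier results of these data known. Genes named outside the 10 were, by rule, the 3 tested genes with the highest Pearson r to each member (*Gm* and *Rik* symbols skipped), up to 4 called genes of each list by p, family members, and abundant genes of other-cell lists.

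Same-numbered libraries deviated together: r was 0.102 to 0.316 between genotypes, against at most 0.0508 between different numbers, and 0.169 to 0.397 between adjacent populations. Between moMs and matIMs the lowest r was 0.0947 in WT and 0.0905 in Ezr-KOm. On simulated counts of 15523 genes for the moM genotype comparison, edgeR recovered 68.5% of 200 genes changed by a log2 fold change of 2, with 2.14% of its calls on unchanged genes. Alternatives were DESeq2 1.42.0, upper-quartile factors, library totals, robust quasi-likelihood, no filter on low counts or 10 counts required throughout, fits to the populations or genotypes compared, blocks on the replicate number, single libraries left out, a prior count of 0.5 and Spearman's rho for likeness.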

Additional observations from a re-analysis of the deposited data

How the results depend on the processing

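The counts of genes called were within 1.5 times of those reported under DESeq2, the other scalings, the filters and the separate fits. Where same numbers pair the libraries, a replicate block within genotype gave 8 in place of 5 calls from moMs to tnsIMs in WT and 6 in place of 3 in Ezr-KOm, where a replicate block across genotypes gave 5. The block changed no call between genotypes, and with either block 9 genes were called from moMs to matIMs in either genotype. With 10 counts required in every library only 7 genes were tested, and 6 of them were called from moMs to matIMs in either genotype. Without the libraries numbered 2, 2 genes were called from moMs to tnsIMs in WT.

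With single libraries left out, the calls in WT ranged from 2 to 5 (moMs to tnsIMs), 3 to 5 (tnsIMs to matIMs) and 7 to 9 (moMs to matIMs), and in Ezr-KOm from 2 to 4, 2 to 7 and 6 to 9. From moMs to tnsIMs in WT the lowest count came without moM replicate 3, and without tnsIM replicate 2 it was 3. From tnsIMs to matIMs in Ezr-KOm 2 were called without tnsIM replicate 3, and 3 without tnsIM replicate 1 or matIM replicate 2 or 3.

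Differences that were not called could change sign or size with 1 library left out. Among those that kept their sign, *Marco* between genotypes ran from 0.0614 to 1.4149 in tnsIMs and 0.4704 to 1.3137 in matIMs, and *Fabp1* from 0.0084 to 1.1657 in moMs and -2.9417 to -0.5551 in tnsIMs. Between genotypes in moMs they ranged from -0.1431 to 0.0101 for *Pparg*, -0.1181 to 1.1959 for *Ear1*, -1.4333 to 0.2045 for *Krt79* and -0.2084 to 0.6678 for *Atp6v0d2*. In tnsIMs they ranged from -0.5470 to 0.0119 for *Siglecf*, -0.0775 to 0.2626 for *Pparg*, -0.4131 to 0.0356 for *Car4*, -0.1880 to 0.3460 for *Ear2*, -1.0207 to 0.2375 for *Ear1*, -0.8807 to 0.9482 for *Krt79* and -0.1067 to 0.5458 for *Atp6v0d2*. In matIMs they ranged from -0.1590 to 0.0744 for *Siglecf*, -0.2203 to 0.0461 for *Pparg*, -1.2980 to 0.2333 for *Fabp1*, -0.0113 to 0.2102 for *Ear2*, -0.2738 to 0.4849 for *Ear1*, -1.2268 to 0.3537 for *Krt79* and -0.0828 to 0.2947 for *Atp6v0d2*. Between populations this held for *Ear2* from moMs to matIMs in WT (-0.0062 to 0.1772), *Fabp1* from moMs to tnsIMs in Ezr-KOm (-0.5917 to 1.4374, and -0.4442 without the libraries numbered 2), and from tnsIMs to matIMs in Ezr-KOm for *Krt79* (-0.0285 to 2.5292) and *Pparg* (-0.1560 to 0.1623). *Pparg* in the last comparison was also at -0.0316 with upper-quartile factors, -0.0046 by DESeq2, -0.0141 with no filter, -0.0121 with at least 10 counts in every library and -0.1286 without the libraries numbered 2. The cause was not tested. With fewer libraries the spread is estimated from fewer samples. Counts of at most 6 for *Fabp1* and *Ear1* in moM libraries limit what can be detected for them.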

Other observations

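Markers of interstitial macrophages were read beside the alveolar macrophage genes, as values only. From moMs to matIMs 3 of 7 rose and 2 of 7 fell in either genotype. Over all tested genes 13.4% rose and 11.4% fell in WT, and 12.5% rose and 10.7% fell in Ezr-KOm. The complement genes *C1qa*, *C1qb* and *C1qc* rose in WT by 1.74, 1.20 and 1.56 on the log2 scale (edgeR, adjusted p = 7.7e-05, 0.00055 and 0.00016), with *C1qa* at 91.7, 270 and 307 CPM in moMs, tnsIMs and matIMs. *Apoe*, a lipid carrier, fell by 1.57 (2483 to 834 CPM), and *Lyve1*, a hyaluronan receptor, fell by 1.24 (11.9 to 5.02 CPM). *Folr2* and *Cd163* were not called.

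Of 5 markers of non-classical monocytes 1 rose and 3 fell from moMs to matIMs in either genotype, beside the same shares of all tested genes. *Treml4*, *Ace* and *Nr4a1*, the last a factor these monocytes depend on, fell in WT by 1.18, 1.08 and 0.77 on the log2 scale, and *Cd300e* rose by 1.06. *Spn* was not called.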
